A study of Bos taurus with 2 samples.

Results

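The GIMAP genes encode GTPases of the immunity-associated protein family and lie side by side in 1 cluster of the cattle genome. On the array 23 of 51282 probes other than controls belonged to them. A probe was taken where its gene name in the scanner tables began with GIMAP or was LOC511617, or where its description named a GTPase of the IMAP family. The gene name LOC510988 was also searched and was carried by 0 probes. The 23 probes had 26 spots and stood for 14 genes or transcript models among 32429 gene names, and none was lost to the scanner's outlier flags. The family was chosen by the log2 differences between these same arrays, so its differences are a description and support nothing.

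Total RNA of spermatozoa was measured on 2 bovine oligonucleotide arrays. One array carried RNA of high-fertile and the other RNA of low-fertile crossbred breeding bulls, and the groups differ in the fertility entry of the labels. No age, number of animals or pooling is given there, and no treatment. The comparison asks which sperm transcripts differ with the fertility of the bull. With 1 array in each group no difference has a replicate, so no p-value is given and each value describes these 2 arrays.

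GIMAP proteins are small GTP-binding proteins, several of them anchored on intracellular membranes, and are best known from lymphocytes, where they bear on development and survival of T and B cells. Loss of GIMAP5 in rodents depletes T cells, and some members have been linked to proteins of the BCL2 family. Mature spermatozoa transcribe little or nothing and carry a residue of RNA from earlier stages. In a bulk RNA sample, fewer cells of a type and less RNA per cell cannot be told apart.

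The name GIMAP7 on the array covered 8 probes. Through their accessions in the RefSeq table of assembly ARS-UCD2.0 these fell to 4 genes now called LOC510988, LOC614871, LOC530031 and LOC100125415. The probes named GIMAP1 on the array fell to LOC512867. In all, 18 of the 23 probes were named by accession. The transcript models XM_867611 and XM_001252735, described as GIMAP1-like, and XR_083285, described as GIMAP2, kept the name in the file, and whether those words describe the model or its next best match is not clear there.

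The sequences that follow are read from the scanner tables, 5′ to 3′, because the results turn on which paralog a probe sees. The first pair comes from LOC510988 and LOC614871, paralogs that shared the name GIMAP7, and capitals mark bases that match in an alignment without gaps.
LOC510988 probe A_73_P245361: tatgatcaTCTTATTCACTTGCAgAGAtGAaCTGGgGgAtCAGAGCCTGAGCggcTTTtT
LOC614871 probe A_73_P263536: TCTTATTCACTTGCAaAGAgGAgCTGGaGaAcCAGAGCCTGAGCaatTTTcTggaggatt
Of 52 aligned bases 42 matched, with a longest unbroken run of 15. These probes lie at chr4:117381571-117381630 on the minus strand and chr4:117212167-117212226 on the plus strand of build HGSC Btau_3.1, the build of the file headers, which holds for all positions given here.

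The second probe of LOC510988 and the measured probe of LOC530031, another paralog once called GIMAP7, are shown because they gave very different values. They are printed without capitals, since they share no run of 16 bases with another member.
LOC510988 probe A_73_112688: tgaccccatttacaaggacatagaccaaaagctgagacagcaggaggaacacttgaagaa
LOC530031 probe A_73_P426276: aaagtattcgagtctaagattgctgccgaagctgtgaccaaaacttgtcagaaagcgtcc
They lie at chr4:117381343-117381402 and chr4:117265389-117265448, both on the minus strand.

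Of the remaining probes at least 2-fold apart, and of the GIMAP6 probe A_73_P048476, which did not differ, 30 bases are shown. In GIMAP5 the capitals mark AATAAA, the letters of the usual polyadenylation signal, and in LOC511617 they mark the stretch that its 2 probes have in common.
GIMAP5 probe A_73_P036256, bases 31 to 60: gttgctttttaggtgAATAAAatccaaagc
LOC511617 probe A_73_P045281, bases 1 to 30: GCCTTTTGATTTTTCTTGCCATTGTAATTA
LOC511617 probe A_73_P194587, bases 6 to 35: GCCTTTTGATTTTTCTTGCCATTGTAATTA
GIMAP6 probe A_73_P268631, bases 1 to 30: tgaaaaaatatccgccatgtcctctatgtt
GIMAP6 probe A_73_P048476, bases 1 to 30: gtaatgtgaactctccctccccagtcacca
The whole GIMAP5 probe lies at chr4:117629097-117629156 on the plus strand. The LOC511617 probes lie at chr4:117247226-117247285 and chr4:117247231-117247290 on the minus strand and overlap by 55 bases, so they are close to 1 measurement made at separate spots. The first of the GIMAP6 probes printed here has no position in the file, and the other lies at chr4:117313303-117313380 on the plus strand, a span of 78 bases for a probe of 60. AATAAA was found in 2 of the 23 probes, GIMAP5 and LOC512867 (A_73_P049036), against 8.35% of all 51280 probes of 60 bases, and its reverse complement TTTATT in 0 against 3.30%. No annotation of build HGSC Btau_3.1 was used here, so exon and UTR could not be assigned. In 7 of the 23 probes every one of the 3 forward reading frames held a stop codon, including GIMAP5 and LOC511617 (A_73_P045281), against 14.2% of all probes of 60 bases.

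Signals are the scanner's processed intensities, which have the background subtracted and are not yet scaled between arrays. A probe counts as measured where the scanner set at least 1 of its spots well above background on both arrays. Wherever a pair of signals is given, the high-fertile array comes first. The lowest signal well above background was 22.5 against 30.3. On this basis 14831 of 51280 probes (28.9%) were measured, no spot was saturated, and the 75th percentile of the measured probes, by which each array was divided, was 141.6 against 176.8. Differences are log2 values, high-fertile minus low-fertile, after this scaling. The error beside each is the scanner's own error model for the spots, as 1 SD, and holds no variation between bulls or RNA preparations. Over 3713 measured probes with 2 spots the difference varied between spots with an SD of 0.36.

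Of the 23 GIMAP probes 10 were measured, 4 were well above background on the high-fertile array only, 0 on the low-fertile array only, and 9 on neither. Over all probes 2151 were well above background on the high-fertile array only and 2034 on the low-fertile array only. Of the 10 measured probes 6, from 4 genes, were at least 2-fold higher on the high-fertile array and 0 were at least 2-fold lower. Over all measured probes 2.16% were higher and 2.86% lower by this measure, together 5.02%, and nothing is read from the contrast because it served to choose the family. The median of the 10 differences was 1.32, and the median over all measured probes was -0.01. The 6 differences ran from 1.30 to 1.85, and the next below them was 0.76. Each of the 6 probes had 1 spot.

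**Figure D1:**
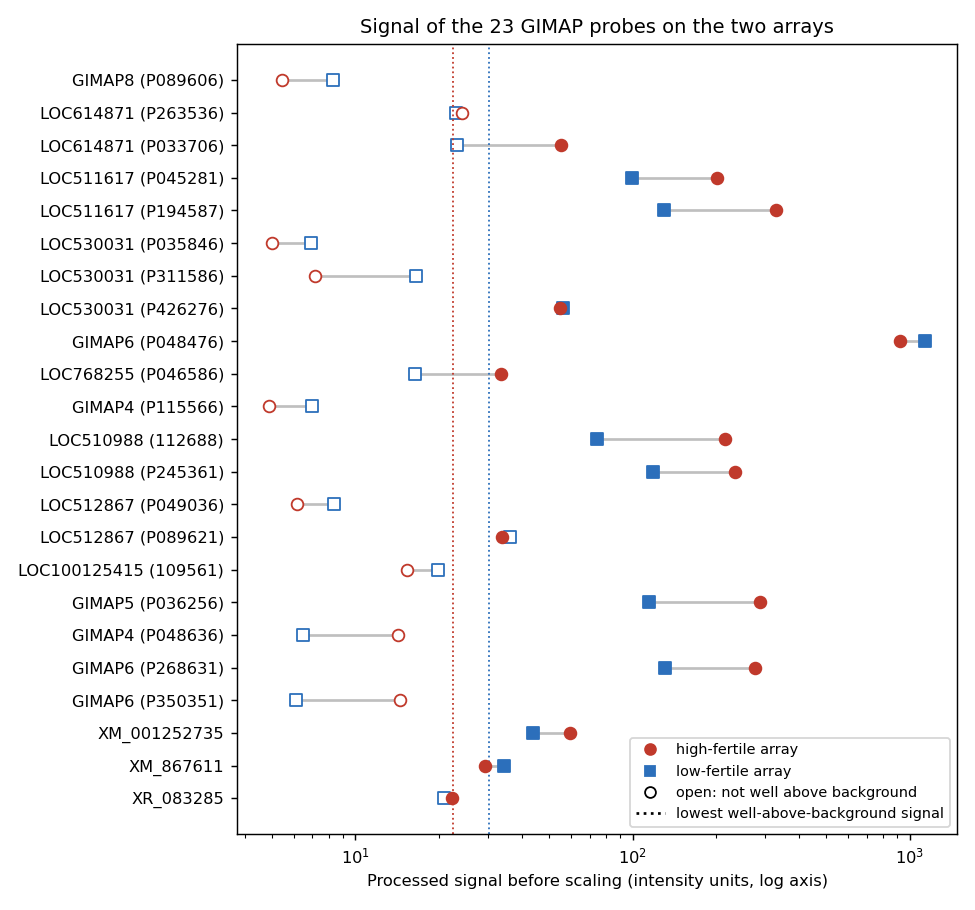
Processed signal of each of the 23 GIMAP probes (one line each, log axis, intensity units before scaling) on the high-fertile array (circles) and the low-fertile array (squares). The upper 17 are in order of position on chromosome 4, the lower 6 have no position; filled symbols are well above background, open ones are not, and dotted lines mark the lowest well-above-background signal of each array. The 6 probes at least 2-fold apart had signals between 202.1 and 329.7 (high-fertile) and between 74.5 and 131.3 (low-fertile).

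LOC510988, 1 of the GIMAP7-type GTPases, had both of its probes at least 2-fold higher on the high-fertile array. Probe A_73_112688 had a signal of 215.3 against 74.5, a 3.61-fold difference after scaling (log2 1.85, scanner error 0.24). Probe A_73_P245361 had 233.9 and 118.2, a 2.47-fold difference (log2 1.30, scanner error 0.23). The probes lie 0.23 kb apart and share no run over 6 bases, and their gap of 0.55 compares with a median gap of 0.37 over 2550 pairs of measured, non-overlapping probes of 1 gene. Of those pairs 34.2% had a gap at least as wide.

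LOC511617, described as GIMAP5-like, was also higher with both of its overlapping probes. Probe A_73_P194587 had a signal of 329.7 against 129.9, a 3.17-fold difference (log2 1.66, scanner error 0.22). Probe A_73_P045281 had 202.1 and 99.8, a 2.53-fold difference (log2 1.34, scanner error 0.23). The means over their probes were 1.501 (SD 0.23) for LOC511617 and 1.58 (SD 0.39) for LOC510988.

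GIMAP5, the member whose loss depletes T cells in rodents, had 1 probe on the array. Its signal was 288.0 against 114.8, a 3.13-fold difference (log2 1.65, scanner error 0.22).

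GIMAP6, a member linked to autophagy proteins, had 3 probes with unlike values. Probe A_73_P268631 had a signal of 276.7 against 131.3, a 2.63-fold difference (log2 1.40, scanner error 0.22). Probe A_73_P048476 had 919.9 and 1132, a difference of 0.02 (scanner error 0.20), so it did not move with the first. Probe A_73_P350351 was below the scanner's limit on each array, with 14.5 and 6.11. The gap between the measured probes was 1.37, and 3.18% of the 2550 pairs of probes of 1 gene had a gap at least as wide. A probe of the expressed-sequence cluster TC448390, at chr4:117313269-117313328, shared a run of 17 bases with A_73_P048476 and differed by 0.49, with signals of 92.8 and 82.8. The mean of the measured GIMAP6 probes, 0.71, had an SD of 0.97.

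The other measured probes differed less. The model XM_001252735 had 2 spots with signals of 61.6 against 50.3 and 57.2 against 38.1, and its mean difference was 0.76 (scanner error 0.23). Its spots gave 0.61 and 0.91, both above 0. LOC530031 had signals of 54.9 and 56.0 with A_73_P426276, a difference of 0.29 (scanner error 0.31), and its other 2 probes were dim on both arrays. The model XM_867611 had 2 spots with signals of 29.1 against 52.3 and 29.8 against 22.5. It differed by 0.10 (scanner error 0.31), with its spots on opposite sides of 0, at -0.53 and 0.72 in that order, and the first alone well above background on the low-fertile array. Of these 3, the last 2 lay within their scanner error of 0.

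**Figure D2:**
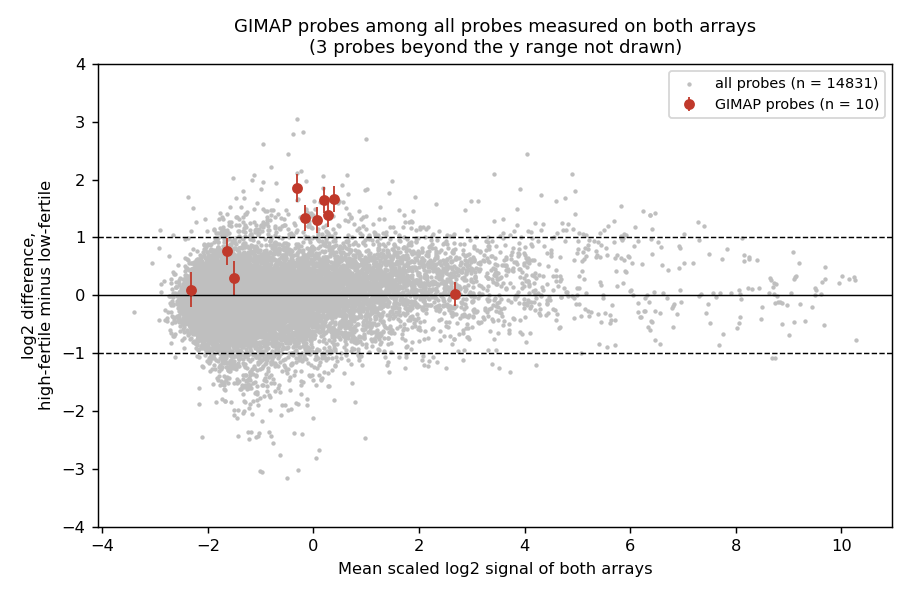
Log2 difference between the high-fertile and the low-fertile array (y axis) against the mean scaled log2 signal of both arrays (x axis) for all 14831 probes measured on both arrays (grey) and the 10 measured GIMAP probes (red, bars are the scanner error as 1 SD). Dashed lines mark 2-fold; 6 GIMAP probes lie above the upper line, between 1.30 and 1.85, and 0 below the lower one.

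Of the probes seen on the high-fertile array alone, 2 give bounds. For them the low-fertile level is taken as the higher of the probe's own signal and the lowest well-above-background signal of that array. LOC614871, a paralog of LOC510988, had a signal of 55.2 against 23.2 with A_73_P033706, at least 2.27-fold higher. Of 2151 probes seen on the high-fertile array alone 5.86% were at least 2-fold above this bound. LOC768255, described as GIMAP4-like, had 33.5 and 16.4 and was at least 1.38-fold higher. The scanner errors of the log2 differences were 0.47 for this LOC614871 probe and 0.67 for LOC768255. The bounds make no allowance for these errors, so they are not firm floors. LOC512867 had 33.7 and 36.1 with A_73_P089621, a difference of 0.22 after scaling that lay within its scanner error of 0.43, so no bound is given. This probe spans 1204 bases of the genome, from 117400930 to 117402133. LOC614871 (A_73_P033706) lies at chr4:117213453-117213512 on the plus strand, LOC768255 at chr4:117335185-117335244 on the minus strand, and the LOC512867 probe is on the minus strand. The model XR_083285, without a position, had spots with signals of 32.4 against 22.9 and 15.3 against 19.1, the first well above background on the high-fertile array, and gave no bound above 1.

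The 9 probes not well above background on either side came from GIMAP8, GIMAP4 (both probes), GIMAP6, LOC614871, LOC530031 (2 probes), LOC512867 and LOC100125415. GIMAP4 is a T cell protein that bears on cell death, and GIMAP8 is the member with repeated GTPase domains. Their signals ran from 4.90 to 24.2 (high-fertile) and from 6.11 to 23.04 (low-fertile), and no fold is given for them. GIMAP8 lies at chr4:117180457-117180516 on the plus strand and had 5.43 against 8.29. LOC530031 had 5.02 against 6.92 at chr4:117264462-117264521 and 7.13 against 16.6 at chr4:117264984-117265043, both on the minus strand. GIMAP4 had 4.90 against 6.97 at chr4:117336111-117336170 on the minus strand, and 14.3 against 6.48 with A_73_P048636, which has no position. LOC512867 (A_73_P049036) had 6.15 against 8.37 at chr4:117399680-117399739 on the minus strand. LOC100125415 had 15.3 against 19.9 at chr4:117577269-117577328 on the plus strand. The probe of LOC614871 that resembles LOC510988 (A_73_P263536) was among them, with 24.2 and 23.04.

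Of the 253 pairs of member probes 1 shared a run of at least 16 bases, the overlapping pair of LOC511617, so no probes of different GIMAP genes did. Across different genes the measured probes had a median gap of 0.70 over 42 pairs, with a smallest gap of 0.02 and a largest of 1.83. With non-members 8 of the 23 probes shared such a run, counting both strands. Of the 6 probes at least 2-fold higher none was among these 8. How many of all probes share such a run was not counted, so nothing is read from these counts. Probes were compared with probes and not with transcripts, so which paralogs each probe sees was not tested. LOC768255 shared 26 bases with the unnamed probe A_73_111087, which had signals of 34.7 and 26.9. Member probes had between 35% and 60% G and C, with a median of 40% against 45% over all probes.

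On chromosome 4 the 17 placed probes ran over 448.7 kb, from 117180457 to 117629156. Their order was GIMAP8, LOC614871, LOC511617, LOC530031, GIMAP6, LOC768255, GIMAP4, LOC510988, LOC512867, LOC100125415 and GIMAP5. In the table of assembly ARS-UCD2.0 the middle of the cluster stands the other way round in part, as GIMAP4, LOC510988, LOC512867, LOC768255 and GIMAP6. Among the placed and measured probes, those at least 2-fold higher came from LOC511617, LOC510988 and GIMAP5, which were not next to each other. LOC614871 stood directly before LOC511617 in both orders. It was at least 2.27-fold higher by the bound of 1 of its 2 probes. The other probe, with 24.2 against 23.04, was not well above background on either array. In the build of the file headers LOC530031, with a difference of 0.29, and GIMAP6 (A_73_P048476), with 0.02, lay between LOC511617 and LOC510988. GIMAP6 stands after LOC510988 in ARS-UCD2.0, and its unplaced probe A_73_P268631 differed by 1.40. The 2-fold higher genes stood on both strands, with LOC511617 and LOC510988 on the minus and GIMAP5 on the plus strand.

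Probes of other names in and around the cluster that were measured on both arrays did not differ 2-fold. Of those seen on the high-fertile array alone, LRRC61 (A_73_P051711) had signals of 48.4 and 29.3, a difference of 1.04 (scanner error 0.48). The measured probes of LRRC61 differed by 0.57 and 0.18. NOS3 (A_73_113686), likewise seen on the high-fertile array alone, differed by 0.99 (scanner error 0.92), and SSPO (A_73_P050711), seen on the low-fertile array alone, by -0.34. Also seen on the high-fertile array alone, ENSBTAT00000043813 differed by 0.52, RARRES2 (A_73_P051391) by 0.36 and KCNH2 (A_73_P049676) by 0.12. These are plain differences and are not comparable with the bounds given for GIMAP probes. Within the cluster lay 3 probes of other names, of which 2 were measured, with differences of 0.49 and -0.25. The first is the TC448390 probe, which overlaps GIMAP6 probe A_73_P048476 on the same strand and may not stand for another gene. In the 250 kb before it 14 of 23 probes were measured, with a median of 0.10 and a range from -0.22 to 0.72, and 0 were 2-fold higher or lower. In the 250 kb after it 4 of 11 were measured, with a median of -0.21 and a range from -0.70 to 0.20, and again 0 were 2-fold apart. TMEM176B, a membrane protein gene next to the cluster, had signals of 26.3 and 53.3 and a difference of -0.70 (scanner error 0.36). REPIN1, a zinc finger gene on the other side, had 41.8 and 36.3 and a difference of 0.52 (scanner error 0.36).

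**Figure D3:**
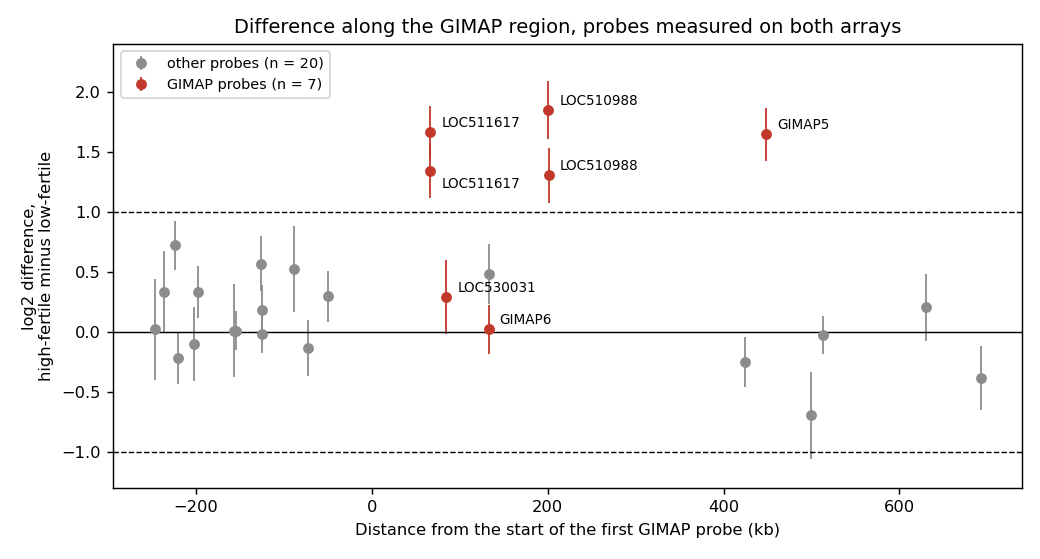
Log2 difference (y axis, high-fertile minus low-fertile) of probes measured on both arrays against the distance of each probe from the start of the first GIMAP probe (x axis, kb), for 7 placed GIMAP probes (red) and 20 probes of other names (grey). Bars are the scanner error as 1 SD and dashed lines mark 2-fold; LOC511617, LOC510988 and GIMAP5 lie above 2-fold while LOC530031, GIMAP6 and all 20 other probes lie below it.

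Markers of the cells in which GIMAP genes are usually found did not differ 2-fold. These lists count a gene by the mean of its measured probes, unlike the count of 6 GIMAP probes. By gene means 3 of the 7 measured GIMAP genes or models were at least 2-fold higher, in the values that chose the family. Over all 12203 genes so measured the median was -0.01, with 1.92% up and 2.51% down by 2-fold or more. Of 21 T cell markers 9 were measured, with a median of 0.21 and a range from -0.86 to 0.87, and 0 were 2-fold apart. LAT, a linker in T cell receptor signalling, differed by 0.87 and the co-receptor CD4 by 0.61, while LEF1, a transcription factor, differed by -0.86 and CD3G, a receptor subunit, by -0.40. Each value rests on 1 measured probe, of 3, 5, 2 and 3 in that order, and LEF1 had signals of 25.9 against 58.5. CD3D, another subunit, named after its value was seen, had signals of 4647 against 7439 with 1 of 3 probes and a difference of -0.36. Whether T cell RNA bears on the GIMAP values was not tested. Neither array had 11 of them well above background, among them CD3E, CD5, CD8A, LCK and IL7R. The summed scaled signal of the T cell markers, in multiples of each array's 75th percentile, was 48.7 against 53.0. This sum and those of the lists below run over measured probes rather than gene means. CD3D made up most of it, at 4647 of 6899 and 7439 of 9372 before scaling.

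Of 15 markers of all leukocytes 9 were measured, with a median of -0.16 and summed scaled signals of 42.3 and 66.3. The differences ran from -0.65 to 0.61. CD53, a tetraspanin of leukocytes, differed by -0.65 with 1 of 3 probes and signals of 48.1 against 94.1. PTPRC, the common leukocyte antigen, differed by -0.51 (SD 0.46 over 2 probes) and ITGB2, an integrin of leukocytes, by 0.61 (SD 0.51 over 4 probes). The 2 PTPRC probes had mean signals of 2297 against 5089 and made up most of the list's unscaled sums of 5989 and 11722. CORO1A, ITGAL and IKZF1 were not well above background. Of 10 B cell markers 6 were measured, with a median of 0.14 and sums of 11.9 and 11.52. Of 9 markers of NK and cytotoxic cells 5 were measured, with a median of -0.15 and sums of 3.65 and 3.97. Of 13 myeloid markers 8 were measured, with a median of 0.10 and sums of 70.9 and 84.8. Most of these sums came from LYZ, with mean signals of 4588 against 6989 over 2 probes and a difference of 0.33 (SD 0.88). The myeloid sums were thus lower on the high-fertile array while the mean log2 difference of LYZ was above 0. Its SD was wider than the difference itself, so no direction is read for LYZ. Endothelial cells also express GIMAP genes, and of 12 endothelial markers 8 were measured, with a median of 0.07 and sums of 8.82 and 8.97. In these 5 lists too, 0 genes were 2-fold apart.

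Markers of other cells are given for the same reason. Epithelial markers (3 of 7 measured) had a median of 0.33, erythroid markers (2 measured) 0.09 and testis somatic markers (8 of 10 measured) -0.04, with 0 genes 2-fold apart. Of 14 genes of spermatids and sperm 8 were measured, with a median of 0.00. Among them TNP2, a transition protein, was at least 2-fold higher at 1.22, with 1 of 2 probes and signals of 71.1 against 38.2. PRM1, a protamine, was at least 2-fold lower at -1.10 (SD 0.28 over 2 probes), with mean signals of 81.7 against 219.4. PRM2, AKAP4, CRISP2, SMCP, SPATA18 and SPACA3 were not well above background.

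Genes related to GIMAP function stayed below 2-fold. Of 7 genes of the BCL2 family, which govern cell death and include reported partners of GIMAP proteins, 5 were measured, with differences between -0.23 (BCL2) and 0.14 (BAX) and a median of -0.16. Of 11 other GTPases, listed as interferon-inducible or immune, 4 were measured, with a median of 0.36. These were IRGC at 0.56, IRGQ at 0.37, MX2 at 0.35 and MX1 at 0.05. All 4 gene means were above 0, beside 48.4% of all measured probes. Whether each gene of this list acts in immunity was not tested. Of 12 genes known to flank the cluster in mammals 7 were measured, with a median of 0.01.

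The spots of the 6 probes lay in rows 8, 69, 162, 261, 314 and 354 of the array. Of the 7 or 8 usable spots around each, at most 1 was at least 2-fold higher on the high-fertile array, and the median difference of the surrounding spots ran from -0.14 to 0.21. None of the 26 member spots lay in a patch, taken as a spot with at least 5 of its 8 neighbours 2-fold apart the same way.

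**Figure D4:**
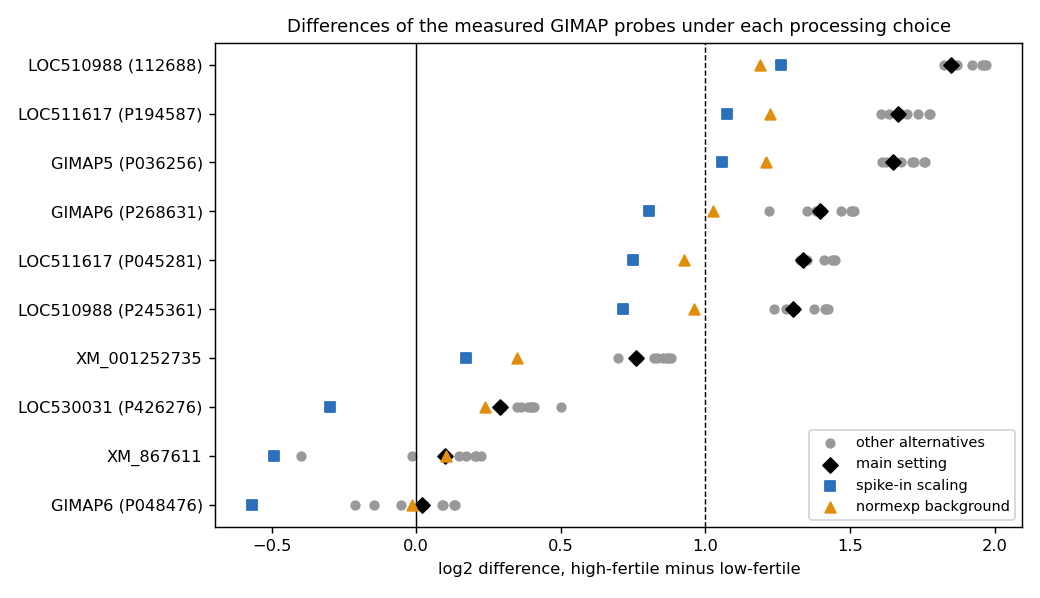
Log2 difference (x axis, high-fertile minus low-fertile) of each of the 10 measured GIMAP probes (rows) under the setting used here (black diamonds), spike-in scaling (blue squares), normexp background correction (orange triangles) and the other alternatives (grey). The dashed line marks 2-fold; the values of the 6 upper probes ran from 0.71 to 1.97, and all lay above 0.

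Of the alternative processings, 12 or 13 gave a value for each of the 6 probes, 74 values in all, and these lay above 0. Their number is no support, because many could hardly differ from the setting used here. Filters on probes or spots keep a probe's own signal, and scaling to a percentile, a median or spike-in probes moves every probe by the same amount. The limit of 4 times the lowest signal well above background left 2 of the 6. With scaling on 7 spike-in probes, which sets the median of all measured probes at -0.60, the 6 differences ran from 0.71 to 1.26. Relative to that median they ran from 1.32 to 1.86, the same by construction as in the setting used here. With normexp background correction the 6 differences ran from 0.92 to 1.22. The directions of GIMAP6 (A_73_P048476), LOC530031 and XM_867611 were not kept, and with spike-in scaling these stood at -0.57, -0.30 and -0.49. Before any scaling 7 of the 10 measured probes were brighter on the high-fertile array, and over all measured probes the median unscaled difference was -0.33.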

How the data were processed

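The scanner tables the authors deposited give spot intensity, made with Agilent Feature Extraction 11.5.1.1 per the file headers, in 1 colour, with background subtracted and spatial trend removed within each array. The deposited series matrix holds log2 values, which equalled the log2 processed signals plus a constant, -5.12 and -5.55 for the high- and low-fertile sample, with a tolerance of 0.01 met by 98.6% of probes. They are not centred by gene and run in the direction of expression. The medians of its columns were -1.43 and -1.37. How these constants were chosen, and any scaling between arrays, are not given in the sources used here.

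Control spots and outliers by the scanner's flags were removed, which cost 2 probes, and a probe's spots were averaged on the log2 scale. Since under 50% of probes were measured, each array's 75th percentile over measured probes was subtracted. Every member probe is reported. Of each marker or related-gene list, the rule allows naming the 2 highest and the 2 lowest measured members, and some of these are left out. CD3D, TC448390 and A_73_111087 were named after their values were seen. A planned match of probes to GIMAP proteins was not run, since no protein sequences were used here. The alternatives are in the closing section. The members and lists were chosen with earlier results of these data known. The calculation was tested on simulated data. Python 3.11.15, pandas 2.3.3, statsmodels 0.14.6 and limma 3.58.1 in R 4.3.3 were used.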

Additional observations from a re-analysis of the deposited data

How the results depend on the processing

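The count of 6 GIMAP probes at least 2-fold apart was 3 with spike-in scaling, where 16.9% of all measured probes were 2-fold lower and 0.351% higher, 4 with normexp, 10 with no filter on dim probes, where all 23 enter and 3.71% of all probes were higher and 7.40% lower, and 2 of the 3 probes left by a limit of 4 times the lowest signal well above background on both arrays. It was 0 at a 4-fold threshold, where 0.108% of all measured probes were higher and 0.209% lower, and 7 at a 1.5-fold threshold, where 8.24% were higher and 9.97% lower. It was 6 with the 75th percentile over all probes, the median of measured probes, quantile normalization, loess, the series matrix values and spots in patches left out. Subtracting the GC trend, centring blocks of spots and requiring every spot well above background were added after seeing the data and also gave 6. Over all measured probes the 2-fold split of 2.16% higher and 2.86% lower became 2.95% and 2.04% when scaled on all probes at that percentile, 2.86% and 1.98% by the matrix, 2.70% and 2.29% by the median, and 0.769% and 0.465% with normexp. The count of 10 measured probes was 3 under the stricter limit, 9 with every spot required and 14 with 1 array enough.

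The median of 1.32 moved to 0.94 with normexp, 0.73 with spike-in scaling, 0.41 with no filter on dim probes and 0.76 as the median over 7 genes. The value of GIMAP6 (A_73_P048476) changed sign to -0.016 with normexp, -0.57 with spike-in scaling, -0.15 with quantile normalization, -0.21 with loess and -0.052 with blocks centred. XM_867611 changed sign to -0.49 with spike-in scaling, -0.40 with the series matrix values and -0.015 with the GC trend subtracted, and LOC530031 to -0.30 with spike-in scaling. Spike-in scaling moved every probe down by the same amount, which turned these small differences negative. The cause of the other sign changes was not tested. Below 2-fold fell LOC510988 (A_73_P245361), at 0.96 with normexp and 0.71 with spike-in scaling, LOC511617 (A_73_P045281), at 0.92 and 0.75, and GIMAP6 (A_73_P268631), at 0.81 with spike-in scaling.

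No paired analysis was possible because each group has 1 array. The number of arrays limits the precision.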
